A study of Canis lupus familiaris with 45 samples.

Results

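Fatty acid desaturases and elongases are the enzymes that turn a saturated fatty acid into an unsaturated or a longer one. They were followed here at every probe set that the platform table assigns to SCD, ELOVL6, ELOVL5, ELOVL1, FADS1, FADS2 or FADS3. A probe set is a group of short probes for 1 transcript, and these 7 genes, of 15115 with a symbol of their own in the table, had 15 of the 43035 probe sets on the array. A further probe set was assigned to both FADS1 and FADS3 and was kept apart. Of the 15, 12 passed the limit for testing, a log2 value above 4 on at least 4 of the 45 arrays. The other 3 were never above 4: both remaining ELOVL5 probe sets, and the only FADS2 probe set.

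The samples were subcutaneous fat biopsies of 9 intact female beagles aged 4 years, with 1 array per dog at weeks 0, 4, 8, 12 and 24. From the week-0 biopsy, dogs 1, 3, 4 and 9 (n = 4) were controls fed to hold their body weight. Dogs 2, 5, 6, 7 and 8 (n = 5) had food ad libitum from then on, that is, without limit. All 9 ate the same commercial food, Purina Pro Plan Performance Formula, were assigned to their feeding at random, and were sampled fasted overnight. The comparison asks how free feeding changes these genes in canine fat. Values are GCRMA levels taken to be on a log2 scale, where a difference of 1 is a doubling. Tests were made only on differences within 1 probe set or between probe sets of 1 gene.

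SCD, stearoyl-CoA desaturase, puts the first double bond into saturated fatty acids and so makes oleate and palmitoleate, which fill stored triglyceride. ELOVL6 lengthens the palmitate that fatty acid synthase releases, and supplies SCD with stearate. Both are textbook targets of the lipogenic factors SREBP-1c and ChREBP in fat and liver. FADS1, FADS2 and ELOVL5 act on diet-derived polyunsaturated fatty acids, ELOVL1 makes the very long saturated chains of sphingolipids, and FADS3 desaturates sphingoid bases.

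The tissue label held: 12 of 12 measured adipocyte markers were above 4 on all arrays, with ADIPOQ, the adipocyte hormone adiponectin, at a median of 15.59. Skeletal muscle genes stood out on 10 arrays, 5 control and 5 ad libitum, where the mean of 21 muscle genes was 7.94 to 14.61 against 3.79 to 5.68 on the other 35. At week 0 these were the arrays of control dogs 1 and 3 and ad libitum dogs 5, 7 and 8. Later they were those of control dog 4 and ad libitum dog 7 at week 8 and ad libitum dog 7 at week 12. At week 24 they were those of control dogs 3 and 4. Changes from week 0 thus start from arrays of mixed tissue. Without the muscle-bearing arrays, 2 control and 2 ad libitum arrays are left at week 0. Of 9 genes of skin and sebaceous gland, a tissue known for SCD, KRT79, AWAT1, AWAT2, PKP1 and TP63 were never above 4, KRT1 and KRT10 were above 4 on 2 arrays each, DSP was on 16, and MGST1 was on all 45. On probe sets that separate the dogs, 43 of 45 arrays matched their label. The week-8 array labelled dog 9 (control) matched dog 5, and that labelled dog 5 (ad libitum) matched dog 9, so week-8 results are given with and without both. The laboratory batch in the labels mixed weeks 0 to 12 in batches 1 to 5, while every week-24 array was in batch 6, which had no other week. A change from week 0 to week 24 within a feeding group therefore cannot be told apart from a change of batch, whereas a comparison of the groups at week 24 lies within 1 batch.

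At week 24 the genes of the oleate-making steps passed the test between the feeding groups, and no tested gene of the polyunsaturated branch did. All 3 SCD probe sets and ELOVL6 were higher in ad libitum dogs, 4 of the 12 tested member probe sets, against 5.46% of all 22690 probe sets past an adjusted p of 0.05 in either direction and 3.76% past it as higher. On these 4, each ad libitum array lay above each control array, which held for 5.41% of all probe sets. Their differences were 0.72, 4.30 and 4.30 for SCD and 4.16 for ELOVL6, while the other 8 lay between -0.08 and 0.50. The 3 SCD probe sets measure 1 gene and are not separate results. The members were chosen with earlier results of these data known. At weeks 0, 4, 8 and 12, 0 of the 12 passed, where the shares of all probe sets past the threshold were 0%, 0.0132%, 1.42% and 0.00441%. Members with an unadjusted p under 0.05 in limma numbered 0, 3, 0 and 2 at those weeks. Of all 22690 probe sets, 312, 2061, 5669 and 2510 had such a p.

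**Figure D1:**
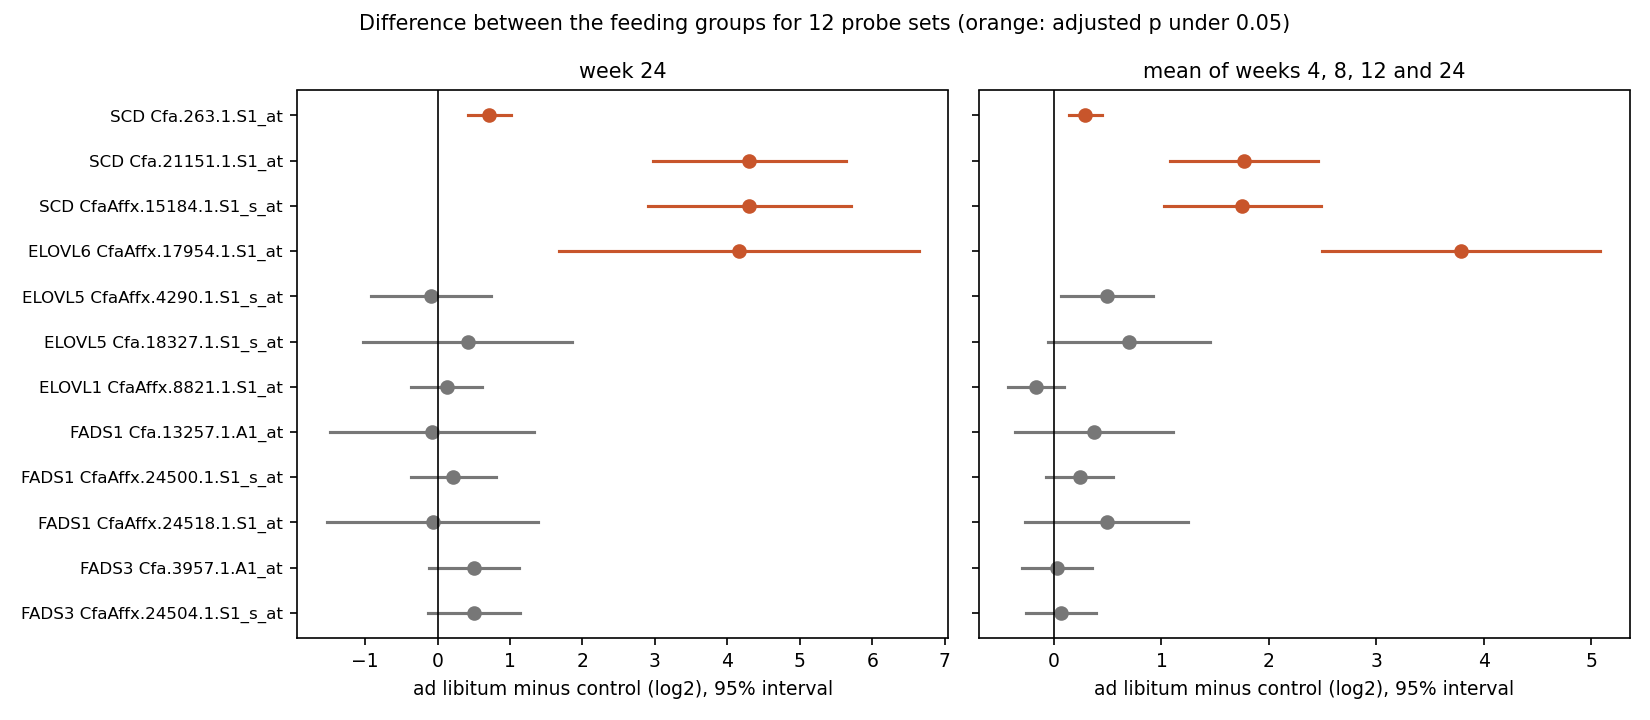
Difference between ad libitum and control dogs (log2, horizontal axis) for the 12 tested probe sets, at week 24 (left) and as the mean of weeks 4, 8, 12 and 24 (right). Points are the limma estimates and lines their 95% intervals, with orange for an adjusted p under 0.05: the 3 SCD probe sets and ELOVL6 are orange in both panels, and the other 8 are grey.

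SCD was measured by 3 probe sets with bright signals. The brightest had a mean log2 value of 16.12. The middle one had a mean of 13.55 and ran from 9.28 to 15.64 over the arrays. The dimmest had a mean of 12.71 and ran from 8.18 to 14.93. The middle and the dimmest probe sets covered a far wider range than the brightest, which stayed between 14.99 and 16.45.

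Before feeding changed, SCD already varied widely among the arrays. At week 0 the middle probe set read 11.03, 11.36, 13.91 and 14.41 in control dogs 1, 3, 4 and 9. In ad libitum dogs 2, 5, 6, 7 and 8 it read 11.54, 13.83, 12.08, 12.78 and 13.70. The groups overlapped fully, with means of 12.68 ± 1.73 (SD, n = 4) and 12.79 ± 1.00 (SD, n = 5). The spread ran along the batches. Dogs 1, 2, 3, 6 and 7, in batches 1 and 2, read 11.03 to 12.78, and dogs 4, 5, 8 and 9, in batches 3 to 5, 13.70 to 14.41. The 3' minus 5' signal of actin, a sign of RNA quality, was 3.04 to 4.29 on the former and 1.43 to 2.27 on the latter. Dog, batch and RNA quality thus cannot be told apart at week 0.

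After the start of free feeding, the middle SCD probe set read at 13.32 or higher on all ad libitum arrays but the one labelled dog 5 at week 8. All 4 control arrays at week 12 were above 13.32 as well. At week 4 the middle probe set read 15.17, 14.52, 13.83, 15.14 and 15.32 in dogs 2, 5, 6, 7 and 8. Control dogs 1, 3, 4 and 9 read 14.26, 10.55, 13.16 and 13.32. The groups overlapped through control dog 1 and ad libitum dog 6, and the fitted difference of 1.00 did not pass (limma adjusted p = 0.632), nor did that of 0.18 at the brightest probe set (0.698). At week 4 all controls were in batches 1 and 2 and all ad libitum arrays in batches 3 to 5. The fitted value thus rests on batch effects estimated from other weeks. Without the batch term the middle probe set differed by 1.98 (limma adjusted p = 0.112). The 3' minus 5' signal of actin, a sign of RNA quality, also separated the groups at week 4. It ran from 1.40 to 2.04 in ad libitum dogs and from 2.76 to 3.39 in controls. Its ad libitum mean was 2.85 at week 0 and 1.75 at week 4. Feeding, batch and RNA quality thus differed together at week 4, for every member. At week 12 the ad libitum values were 15.08, 14.22, 14.64, 14.02 and 14.79 and the control values 14.62, 13.69, 13.53 and 13.37. Only control dog 1 reached the ad libitum range.

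At week 24 the control dogs were at their lowest. The middle probe set read 10.33, 9.28, 9.94 and 11.29 in dogs 1, 3, 4 and 9, and 15.57, 13.32, 15.10, 13.86 and 14.72 in dogs 2, 5, 6, 7 and 8. The highest control lay well below the lowest ad libitum dog, dog 5. From week 0 to week 24 SCD fell in the controls by 2.47 at the middle probe set (SE 0.693, limma adjusted p = 0.0237) and by 2.45 at the dimmest (adjusted p = 0.0341), lower in 4 of 4 dogs at both. The brightest probe set changed by -0.30 (adjusted p = 0.234), lower in 3 of 4 dogs, and did not pass. For this change 4.71% of all probe sets passed as lower. The middle probe set lost its call without control dog 3, 4 or 9 (adjusted p = 0.118, 0.0991 and 0.102), without the muscle-bearing arrays (0.278) and with a term for RNA quality, where the change was -1.76 (0.595). The dimmest lost it in the same settings, and also without ad libitum dog 6 (0.0585) or 7 (0.0588). In ad libitum dogs the change was 1.49 at the middle probe set (adjusted p = 0.158), higher in 4 of 5 dogs, with dog 5 the exception. The contrast of both changes, the feeding effect, was 3.96 (SE 0.935, adjusted p = 0.171) at the middle and 0.66 (adjusted p = 0.287) at the brightest probe set, and for it 0 of the 12 members and 0.022% of all probe sets passed.

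**Figure D2:**
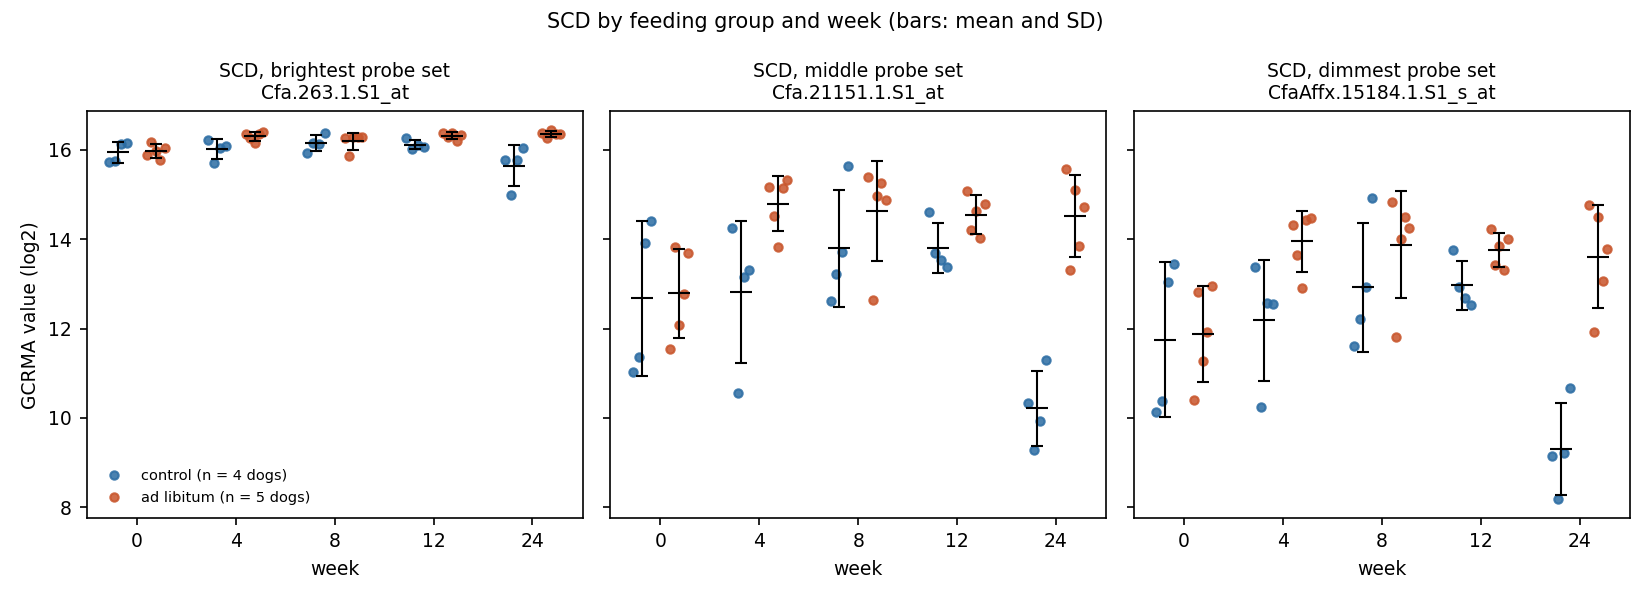
GCRMA value (log2, vertical axis) of the 3 SCD probe sets by week (horizontal axis) for control dogs (n = 4) and ad libitum dogs (n = 5). Points are dogs and bars the mean and SD; at week 24 the groups are apart in every panel, and the brightest probe set on the left spans far less than the other two.

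The 3 SCD probe sets gave the same direction but not the same size. At week 24 the brightest read 15.78, 14.99, 15.76 and 16.05 in control dogs 1, 3, 4 and 9 and 16.38, 16.26, 16.45, 16.36 and 16.36 in dogs 2, 5, 6, 7 and 8. Control dog 3 was the lowest and dog 9 came closest to the ad libitum range, without overlap. Its difference of 0.72 (SE 0.146, 1.64-fold, adjusted p = 0.00505) compares with 4.30 (SE 0.654, 19.7-fold, adjusted p = 3.09e-04) at the middle and 4.30 (SE 0.691, adjusted p = 6.14e-04) at the dimmest probe set.

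The gap between SCD probe sets was itself tested, within arrays, among 11673 pairs of probe sets that share a gene symbol. The week-24 difference was smaller at the brightest than at the middle probe set by 3.59 (SE 0.560, limma adjusted p = 8.34e-04), and than at the dimmest by 3.59 (SE 0.596, adjusted p = 0.00130). Of all pairs, 4.8% passed at week 24. The exact permutation test over all splits of the dogs gave 0.00794 for both pairs (2-sided), the smallest p it can give. The slope of the brightest on the middle one, given next, was 0.311 at the lowest SCD levels and 0.106 at the highest. The 1.64-fold difference at the brightest was read on that narrower range, and the cause was not tested. At such slopes a gap between these probe sets follows from the SCD group difference, so both pair tests are no separate result. The middle and the dimmest probe sets differed in their group difference by -0.0014 (95% interval -0.26 to 0.26). These last 2 also ran together over the arrays, with r = 0.994 across the 45 arrays, which share dogs and batches.

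How the brightest probe set followed the middle one changed with the level. Over the 8 arrays where the middle probe set was at 12 or lower, the slope of the brightest on the middle was 0.311. Over the 17 arrays between 12 and 14 the slope was 0.181, and over the 20 arrays above 14 it was 0.106, in log2 per log2. Above 14 on the middle probe set, the brightest ranged only from 16.15 to 16.45.

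**Figure D3:**
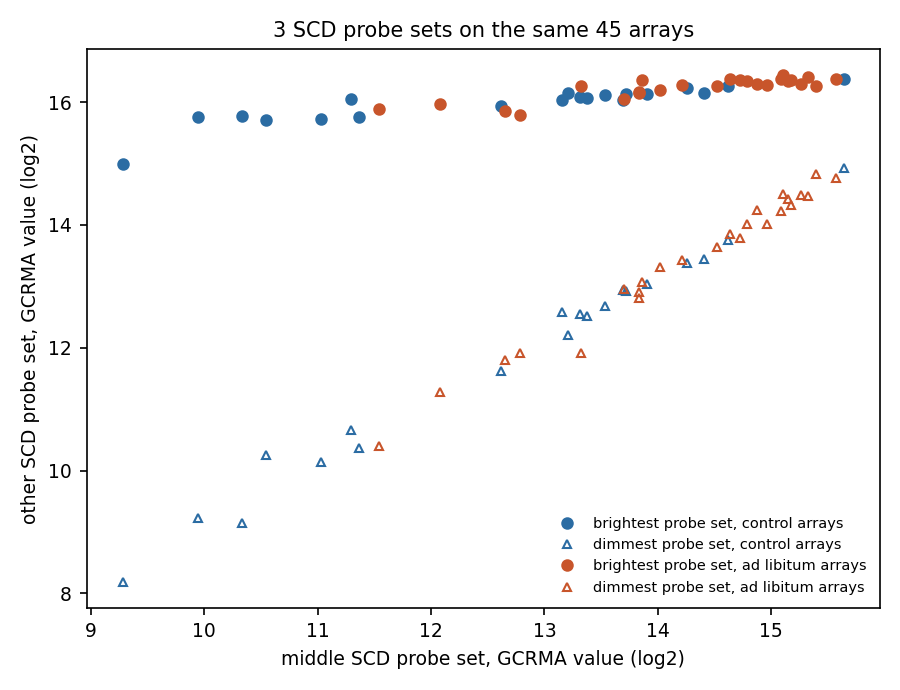
Value of the brightest (filled circles) and the dimmest (open triangles) SCD probe set against the middle one (all GCRMA, log2) on the same 45 arrays, coloured by feeding group. The dimmest follows the middle probe set along a straight line, and the brightest flattens between 16.15 and 16.45 where the middle is above 14.

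ELOVL6, at its only probe set, went from not above 4 to high levels on free feeding. At week 0 all 9 arrays were at 3.87 or lower. From week 4 to week 24 it was above 6 on 18 of 20 ad libitum arrays and on 3 of 16 control arrays. The ad libitum exceptions were the array labelled dog 5 at week 8, with 3.19, and dog 7 at week 12, with 3.86. The control exceptions were dog 1 at weeks 4 and 12, with 7.43 and 6.23, and the array labelled dog 9 at week 8, with 9.83.

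With the week-0 values below the limit of 4, the exact size of the rise is not known. Set against the limit, the observed ad libitum mean was at least 40.8-fold higher at week 4, 9.58-fold at week 8, 21.5-fold at week 12 and 13.5-fold at week 24. Against the controls at week 24, of which only dog 4 was above 4, it was at least 12.0-fold higher. These bounds concern the observed means, without the batch term, and leave out the spread among dogs. The 95% interval of the week-24 group difference, given below, reaches lower.

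In ad libitum dogs 2, 5, 6, 7 and 8, ELOVL6 read 10.93, 8.33, 7.18, 9.10 and 11.20 at week 4. Control dogs 1, 3, 4 and 9 read 7.43, 2.97, 3.36 and 3.79, so that only dog 1 reached the lowest ad libitum dog. At week 24 the ad libitum values were 9.68, 6.28, 9.53, 6.85 and 6.44, and the control values 3.37, 3.01, 4.69 and 3.35. Dogs 2 and 6 were the highest, and the groups did not overlap.

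From week 0, ELOVL6 rose in ad libitum dogs, by a fitted 5.84 at week 4 (SE 1.25, limma adjusted p = 0.0189), where 0.357% of all probe sets passed as higher. It rose by 3.92 at week 8 (SE 1.22, adjusted p = 0.0467; background 2.9%), by 5.02 at week 12 (SE 1.19, adjusted p = 0.0354; background 0.41%) and by 4.29 at week 24 (SE 1.17, adjusted p = 0.0304; background 2.38%). ELOVL6 was higher than at week 0 in 5, 4, 5 and 5 of the 5 dogs at these weeks. Without the 2 unmatched arrays the week-8 change was 5.16 (adjusted p = 0.00707). No other of the 12 members passed in these changes. The calls at weeks 4, 8, 12 and 24 were lost in 5, 12, 5 and 7 of 19 alternatives, each of them without dog 2 (adjusted p = 0.167, 0.270, 0.101 and 0.121) and without the muscle-bearing arrays (0.156, 0.142, 0.105 and 0.228), while ELOVL6 stayed above its week-0 level in all of them. Leaving out dog 5 ended the calls at weeks 4, 8 and 12, dog 6 those at weeks 8, 12 and 24, dog 7 those at weeks 4, 8 and 24, and dog 8 those at weeks 8 and 24. The week-8 call was also lost without control dog 3, 4 or 9. In control dogs the change to week 24 was 0.26 (adjusted p = 0.933), with 3 of 4 dogs higher. The feeding effect on ELOVL6 at week 24 was 4.03 (SE 1.75, adjusted p = 0.431) and did not pass.

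Between the groups, ELOVL6 differed by 4.65 at week 4 (adjusted p = 0.314), 2.09 at week 8 (0.278), 4.26 at week 12 (0.451) and 4.16 at week 24 (SE 1.22, 95% interval 1.67 to 6.64, adjusted p = 0.0399). The week-24 call was lost in 11 of 19 alternatives, with the difference between 3.67 and 4.62 in all of them. It was lost without control dog 1, 3, 4 or 9 or ad libitum dog 2, 6 or 7, with adjusted p up to 0.175. Over the mean of weeks 4 to 24, a comparison added after seeing the data, the difference was 3.79 (SE 0.635, adjusted p = 6.49e-04), with 4 of 12 members past the threshold against 2.67% of all probe sets past it as higher, the same 4 as at week 24. For that mean the ELOVL6 call held in 18 of 18 alternatives, with adjusted p up to 0.0174. Each dog gives 4 arrays to the mean, which the fit took as nearly independent (correlation within a dog 0.00562). Residuals of the same dog had a median correlation of 0.121. The SE and adjusted p of the mean may thus overstate what 9 dogs show. The SCD differences in that mean were 0.29, 1.77 and 1.75 (adjusted p = 0.0208, 0.00179 and 0.00309). Without control dog 3 they were 0.19 (adjusted p = 0.163), 1.28 (0.0444) and 1.27 (0.0746) for the brightest, middle and dimmest probe sets. The brightest also lost its call in that mean without dog 2 (adjusted p = 0.0551), 4 (0.0614), 7 (0.058) or 8 (0.111) and without the muscle-bearing arrays (0.0923).

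Week 8 turned on the 2 arrays whose dog did not match. Without them the ELOVL6 values were 7.98, 7.92, 8.44 and 8.77 in dogs 2, 6, 7 and 8 and 3.57, 3.44 and 4.12 in control dogs 1, 3 and 4, a difference of 4.64 (limma adjusted p = 0.0744) in place of 2.09. For the middle SCD probe set, the ad libitum values were 15.40, 12.65, 14.96, 15.27 and 14.87 and the control values 12.61, 13.21, 13.72 and 15.64, in the same order of dogs. The array labelled dog 5 was the lowest of its group and that labelled dog 9 the highest of all 9. Without the pair the groups no longer overlapped in SCD, and the difference was 1.91 (adjusted p = 0.185) in place of 0.85 (0.41). At the brightest probe set it was 0.20 (0.599) in place of 0.05 (0.839).

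**Figure D4:**
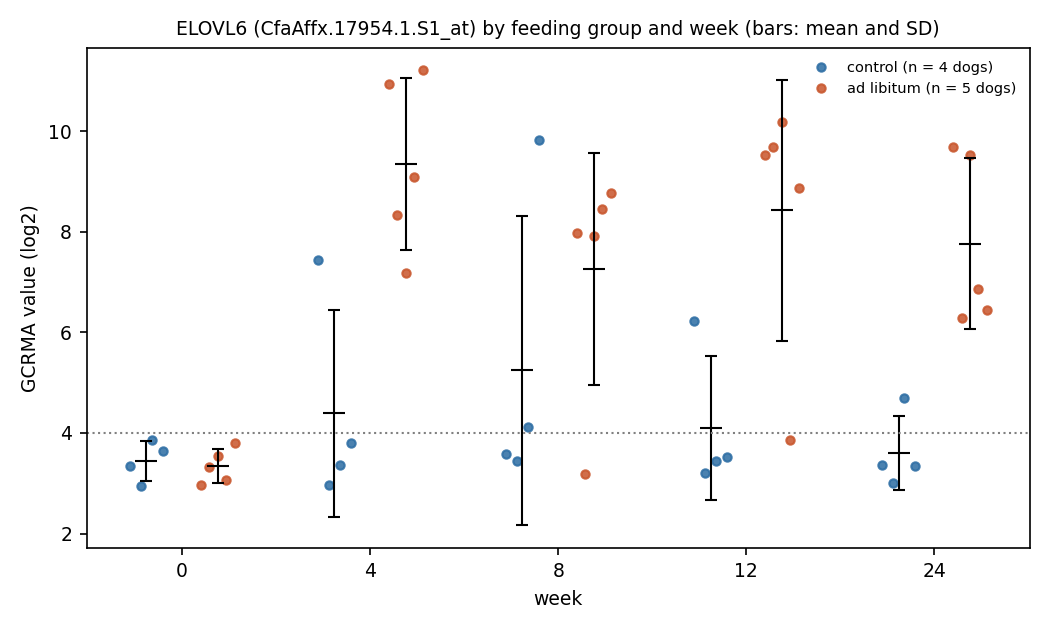
GCRMA value (log2, vertical axis) of ELOVL6 by week (horizontal axis) in control dogs (n = 4) and ad libitum dogs (n = 5), with points for dogs, bars for the mean and SD, and a dotted line at 4. All points lie below the line at week 0, and from week 4 on 18 of 20 ad libitum arrays lie above 6.

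ELOVL6 and SCD were high on the same arrays. On the 21 arrays with ELOVL6 above 6 the middle SCD probe set lay between 13.32 and 15.64, whereas on the 22 with ELOVL6 at or below 4 it ran from 9.28 to 14.41. High SCD thus also occurred with ELOVL6 at or below 4, as in control dogs 4 and 9 at week 0. Across the 45 arrays, which share dogs and batches, r was 0.736. Compared within a batch, over the arrays of weeks 4 to 12, the ad libitum mean was above the control mean in 4 of 5 batches for both genes. The exception for each was batch 5, whose single control array is the week-8 array labelled dog 9. Without the 2 unmatched arrays the within-batch differences ran from 3.81 to 6.02 for ELOVL6 and from 1.04 to 1.84 for SCD over the 4 batches left.

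Other measures also moved with SCD and ELOVL6 at week 24. Of the 12 adipocyte markers, 3 were higher in ad libitum dogs at that week and 0 lower: LEP by 2.70 (adjusted p = 0.0233), AQP7 by 2.10 (0.0201) and LIPE by 1.77 (0.0356), with a median of 0.68 over the 12. That is 3 of 12 against 3.76% of all probe sets as higher. The mean of the marker list was 11.85 to 13.01 in control and 11.99 to 14.15 in ad libitum dogs. The 10 fibroblast and preadipocyte markers had a median difference of -0.65, with 9 negative, 0 past the threshold and 4 at an unadjusted p under 0.05 in limma. Of all 22690 probe sets, 5155 had such a p at week 24. The mean of these markers was 13.35 to 14.19 in control and 12.34 to 13.73 in ad libitum dogs. The mean of 6 genes listed for mammary epithelium was 7.05 on the week-24 array of control dog 4, against at most 3.69 on any other array. Of these genes, CSN2, LALBA and ELF5 were never above 4, KRT8 and KRT18 were on 1 array each, and EPCAM was on 19. The kind of epithelium is thus not known. Without dog 4 the week-24 difference was 4.21 (adjusted p = 0.00532) for the middle SCD probe set and 4.52 (adjusted p = 0.0915) for ELOVL6. The part of these tissues in the other results was not tested. In bulk tissue, fewer adipocytes and less RNA per adipocyte cannot be told apart. Without the muscle-bearing arrays, which leaves 2 controls at week 24 and 0.282% of all probe sets past the threshold, the middle SCD probe set differed by 3.83 (adjusted p = 0.0412), the dimmest by 3.82 (0.0605), the brightest by 0.46 (0.170) and ELOVL6 by 4.62 (0.195). The 3' minus 5' signal of actin, a sign of RNA quality, had a mean of 3.51 (SD 0.91) over the 5 ad libitum dogs and of 4.79 (SD 1.20) over the 4 controls. With it as a covariate the differences were 3.85 (adjusted p = 0.0157) for the middle and 0.84 (adjusted p = 0.0157) for the brightest SCD probe set and 4.23 (adjusted p = 0.245) for ELOVL6.

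ELOVL5 elongates polyunsaturated fatty acids of the omega-6 and omega-3 series. Its brighter tested probe set read 8.58, 8.35, 8.43 and 8.29 in control dogs 1, 3, 4 and 9 at week 24, and 8.53, 8.53, 8.09, 8.23 and 8.26 in dogs 2, 5, 6, 7 and 8. The groups overlapped, with a difference of -0.08 (95% interval -0.91 to 0.74, adjusted p = 0.932). Earlier, the same probe set was nominally higher in ad libitum dogs, by 1.07 at week 4 (adjusted p = 0.522) and by 1.12 at week 12 (adjusted p = 0.451). At week 12 it read 8.82, 8.83, 8.41, 8.38 and 8.84 in ad libitum dogs 2, 5, 6, 7 and 8 and 8.38, 6.91, 8.06 and 7.37 in control dogs 1, 3, 4 and 9. Ad libitum dog 7 and control dog 1 were level to 2 decimals, and no values overlapped, which held for 0.591% of all probe sets.

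The dimmer ELOVL5 probe set lay at 2.88 to 7.55. At week 4 it was 7.55, 7.02 and 6.26 in ad libitum dogs 2, 8 and 7 but 3.49 and 3.43 in dogs 5 and 6, within the control range of 2.88 to 4.28. The same 3 dogs were the highest at the brighter probe set, with 9.94, 9.65 and 9.01. The probe sets correlated with r = 0.83 over the 45 arrays, and their week-24 differences of -0.08 and 0.41 were apart by 0.50 (SE 0.432, adjusted p = 0.479). The 2 untested ELOVL5 probe sets stayed between 1.98 and 2.46 on all arrays.

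ELOVL1 was present on every array, between 8.33 and 10.81 at its 1 probe set. At week 4 it read 9.68, 10.29, 10.81 and 10.23 in control dogs 1, 3, 4 and 9 and 9.67, 9.64, 10.15, 9.64 and 8.81 in dogs 2, 5, 6, 7 and 8. It was lower in ad libitum dogs by 0.67 in the fit, but the groups overlapped and the adjusted p was 0.501. At week 24 the difference was 0.12 (95% interval -0.37 to 0.62, adjusted p = 0.814). ELOVL1 was lower at week 24 than at week 0 in all 9 dogs, by 0.62 ± 0.49 in controls and 0.60 ± 0.45 in ad libitum dogs (SD), across the change of batch.

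At week 24 FADS1, the desaturase that makes arachidonate, differed more among dogs than between the feeding groups. Its brightest probe set read 6.99, 6.36, 6.06 and 6.60 in control dogs 1, 3, 4 and 9 at week 24. In ad libitum dogs 2, 5, 6, 7 and 8 it read 7.69, 8.88, 3.73, 5.61 and 6.24. Both the highest and the lowest values were thus of ad libitum dogs, and the difference of -0.07 (95% interval -1.48 to 1.34) did not pass (adjusted p = 0.967). Dog 5 was also the highest at the other 2 FADS1 probe sets, with 7.26 at the middle and 6.86 at the dimmest one. The differences at these 2 were 0.22 (adjusted p = 0.698) and -0.07 (adjusted p = 0.971). At weeks 4, 8 and 12 the brightest probe set was above week 0 in 5, 4 and 5 of 5 ad libitum dogs. The mean changes were 1.48, 0.58 and 1.45. In controls they were 0.42, -0.66 and 0.14, higher in 2, 0 and 3 of 4 dogs. In ad libitum dogs, 5, 4 and 5 were higher at the middle and 5, 2 and 5 at the dimmest probe set. None of these changes passed.

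The 3 FADS1 probe sets followed each other with r between 0.73 and 0.84 over the 45 arrays. The middle one was within 0.05 of 5.47 on 24 of the 45 arrays. FADS2, which carries out the first step of the same pathway, was at most 3.27 on any array. Its 2 values above 3 were both of ad libitum dog 2, 3.27 at week 12 and 3.11 at week 24. The probe set's low level does not show that FADS2 RNA was absent.

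FADS3 was high and its 2 probe sets gave 1 picture. At the brighter one it read 11.04, 9.87, 10.03 and 10.78 in control dogs 1, 3, 4 and 9 at week 24 and 11.26, 10.07, 11.01, 11.18 and 11.13 in dogs 2, 5, 6, 7 and 8. Ad libitum dog 5 lay among the controls. The difference was 0.50 (95% interval -0.12 to 1.12, adjusted p = 0.339), and at the dimmer one it was also 0.50 (adjusted p = 0.339). The sign changed between weeks. At weeks 4, 8 and 12 the group means differed by -0.40, 0.48 and -0.37 at the brighter probe set. At the dimmer one they differed by -0.33, 0.54 and -0.26. The pair had r = 0.972 across the 45 arrays. The probe set shared by FADS1 and FADS3 had a week-24 difference of 0.28 (adjusted p = 0.543).

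FADS3, FADS2 and FADS1 are neighbours on 1 chromosome in the RefSeq table (assembly UU_Cfam_GSD_1.0), with 0 other protein-coding genes between them. The FADS3 probe sets read between 9.42 and 11.66 and the FADS2 probe set at or below 3.27, and signals of different probe sets are not on 1 scale. Dog 5 had the lowest FADS3 of the ad libitum dogs at week 24, at both probe sets, and the highest FADS1.

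**Figure D5:**
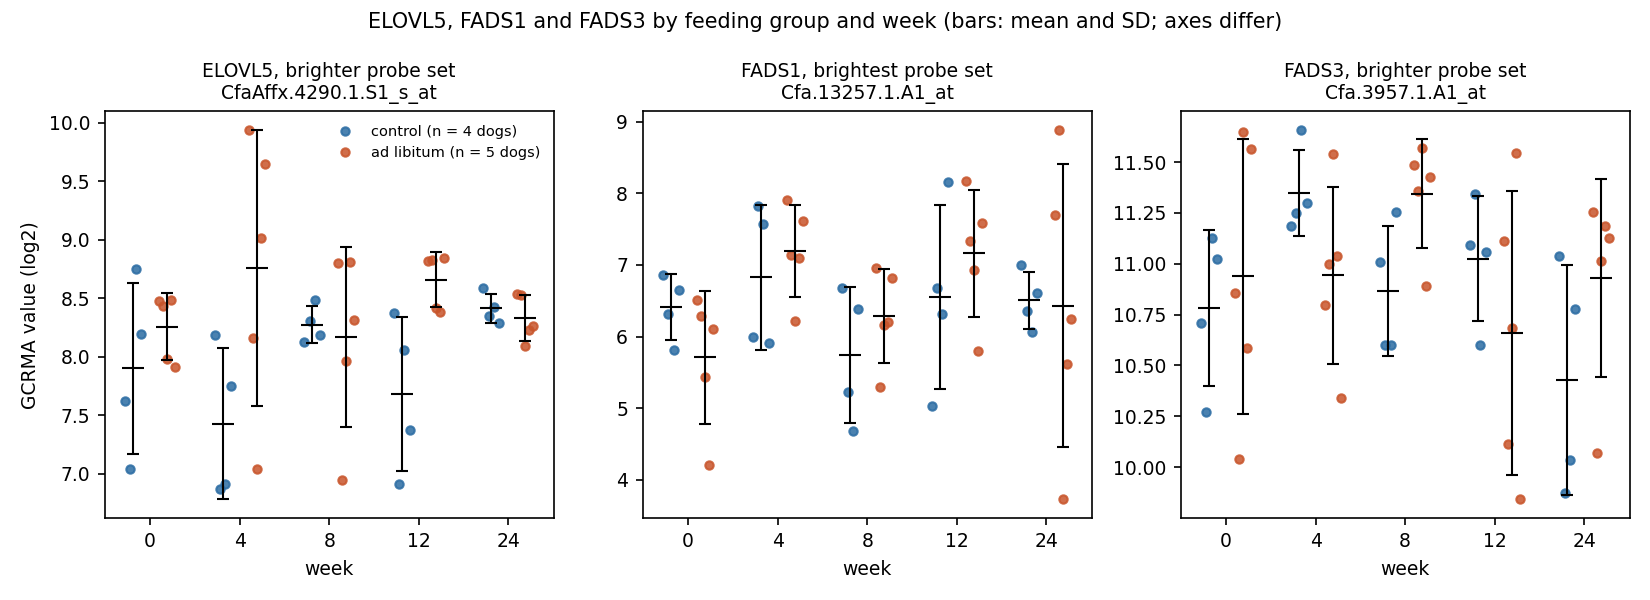
GCRMA value (log2, vertical axes, which differ) of ELOVL5, FADS1 and FADS3 probe sets by week (horizontal axis) in control dogs (n = 4) and ad libitum dogs (n = 5). Points are dogs and bars the mean and SD; the groups overlap at week 24 in every panel, and FADS1 spreads from 3.73 to 8.88 among ad libitum dogs.

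Among the enzymes that complete an elongation cycle, 2 of 6 tested were higher in ad libitum dogs at week 24 and 0 lower, with a median of 0.90 against 0.008 over all tested probe sets, of which 3.76% were higher and 5.46% passed either way. None of the calls on the gene lists given here and next, or on the adipocyte markers, held without the muscle-bearing arrays, a setting chosen after seeing the data: 0 genes passed in limma in each list, SCD at its brightest probe set included, and the medians were 0.64 for the elongation cycle, 0.66 for fatty acid synthesis, 0.25 for the regulators and 0.09 for the adipocyte markers. At an unadjusted p under 0.05 there were then 3 of 6, 3 of 10, 5 of 14 and 3 of 12 genes in these 4 lists, and 2 of 9 among genes that use polyunsaturated fatty acids. With all arrays kept, the 2 elongation cycle genes that passed were HACD2 and TECR. HACD2, which dehydrates the lengthened chain, was higher by 1.94 (limma adjusted p = 0.00798). TECR, which reduces it last, was higher by 1.49 (adjusted p = 0.0156). HSD17B12, the ketoreductase of the cycle, differed by 1.31 at its brightest probe set (adjusted p = 0.144). Of 4 genes that supply electrons to the desaturases through cytochrome b5, 0 passed and the median was 0.39. The other desaturases and elongases had 7 genes on the array and 2 that could be tested, SCD5 and DEGS1, which differed by 0.34 and 0.13 (adjusted p = 0.221 and 0.729).

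Fatty acid synthesis makes the chains that ELOVL6 and SCD act on. The list of its 10 tested genes includes SCD and ELOVL6 themselves, and its median of 0.87 does too. Of the 10, 3 were higher and 0 lower, where 3.76% of all probe sets were higher. SCD and ELOVL6 are the calls already given above, so only SLC25A1 was added. SLC25A1, the mitochondrial citrate carrier, was higher by 1.06 (limma adjusted p = 0.0409). FASN, fatty acid synthase, differed by 0.66 (adjusted p = 0.512), ACLY by 0.80 (0.230) and ACACA by 0.13 (0.90). Without the muscle-bearing arrays FASN and ACACA changed sign, to -0.70 (limma adjusted p = 0.648) and -0.72 (0.580). ACLY then differed by 0.37 (0.804). With all arrays, 2 of 14 regulators of lipogenic transcription were higher and 0 lower, with a median of 0.62. They were INSIG1, a sterol sensor that holds back SREBP and is itself induced by it, by 2.29 (adjusted p = 0.00989), and SREBF1 by 1.67 (adjusted p = 0.0470). MLXIPL, which encodes ChREBP, differed by 0.45 (adjusted p = 0.626), and by -0.19 (0.921) without the muscle-bearing arrays. In that setting INSIG1 differed by 1.88 (limma adjusted p = 0.238) and SREBF1 by 1.64 (0.293).

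On the side where polyunsaturated fatty acids are used, 0 of 9 genes were higher and 1 lower at week 24, with a median of -0.03. Of all probe sets, 3.76% were higher and 1.69% lower. The lower one was PTGS1, cyclooxygenase 1, with a difference of -2.18 (adjusted p = 0.00533). Of 7 genes of ceramide and very-long-chain lipid synthesis, 0 passed, and the median was 0.33. At weeks 4, 8 and 12, 0 genes of any of these 7 lists passed.

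The genes whose level ran most like SCD over the 45 arrays were ECHDC1 (r = 0.903), HSD17B12 at another of its probe sets (0.903) and PON2 (0.890), compared with the dimmest SCD probe set. Those most like ELOVL6 were PCSK1 (0.920), NID2 (0.891) and ADGRG4 (0.887). For ELOVL5 they were TM9SF2 (0.854), YWHAZ (0.820) and TMEM30A (0.815), and for ELOVL1 they were ANKRD39 (0.924), PRELID1 (0.913) and AP3S2 (0.907). FADS3 was closest to MCAM (0.910), NR2F6 (0.897) and PPP1R11 (0.896). FADS1 had weaker companions, TIMP1 (0.71), IL27RA (0.704) and IL18BP (0.671). The arrays share dogs, batches and cell makeup, so these correlations are a description.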

How the data were processed

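RNA of 45 samples was extracted with Trizol and hybridised after biotin labelling to Affymetrix canine arrays, per the labels' protocols. GCRMA made the values that the authors deposited, per the submitters' processing notes, and they were taken to be log2 values. The sources used here do not give the log base, the version or any batch correction. They ran from 0.42 to 17.51. Array controls (111 probe sets) were left out, and 22690 of 42924 probe sets had a log2 value above 4 on at least 4 arrays and were tested. The number of dogs limits the precision.

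Every probe set was fitted with limma 3.58.1 (statmod 1.5.0, R 4.3.3), with 10 means (feeding group by week), laboratory batch 1 to 5 as a term coded to sum to 0, and the dog as a random block (correlation 0.00562, with 31 degrees of freedom left). P-values from limma were adjusted by the Benjamini-Hochberg method over all 22690 probe sets and called at a threshold of 0.05. Pairs of probe sets with 1 shared symbol were fitted the same way on their within-array difference, adjusted over 11673 pairs. The fit was tested on simulated data.

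The animal id in the labels pairs the arrays of a dog. Residuals of the same dog at different weeks had a median correlation of 0.121 (90 pairs), against -0.03 for other dogs of the group (320 pairs). Identity was checked on 100 probe sets that separate the dogs.

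Symbols came from the platform table; all 7 symbols and the gene identifiers of 6 of them, not that of ELOVL1, were in the RefSeq table. No sequence or coordinate was used. The members and gene lists were chosen with earlier results of these data known. By the naming rule, every member probe set is named; so are the 3 genes of highest r with each gene's most variable tested probe set, list genes past the threshold at week 24 (up to 4 a list and direction, at the brightest probe set), and FASN, ACACA, ACLY, SREBF1, MLXIPL, INSIG1 and HSD17B12. SCD5, DEGS1 and the 3 adipocyte markers were named after their values were seen. Alternatives varied the batch and dog terms, the filter, the normalization, array weights, RNA quality and the arrays used.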

Additional observations from a re-analysis of the deposited data

Results flagged for a closer look

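Of 120 sets of 4 or 5 arrays (1 probe set, feeding group and week), 15 held an array far from the rest of its set by Dixon's criterion; chance gives about 1 in 20, or 6. At week 8 the low array was the one labelled dog 5 (ad libitum), at 15.86, 12.65 and 11.81 for the brightest, middle and dimmest SCD probe sets and at 3.19 for ELOVL6. For ELOVL6 in the controls, the high array of that week was the one labelled dog 9, at 9.83. These are the 2 arrays whose dog did not match.

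At week 12 ELOVL6 was 6.23 in control dog 1, against 3.20 to 3.52 in the other controls, and 3.86 in ad libitum dog 7, against 8.88 to 10.18. For FADS3, dog 5 lay apart at week 24 at both probe sets, at 10.07 and 9.58. The dimmest FADS1 probe set was 6.86 in the same dog at week 24, and 5.33 in control dog 1 at week 0.

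The other 4 concern the middle FADS1 probe set, which stayed near 5.47 on most arrays. It read 5.12 in control dog 3 and 4.53 in ad libitum dog 7 at week 0, 4.72 in control dog 4 at week 8, and 5.89 in control dog 1 at week 24.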

How the results depend on the processing

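Of 14 called values of single probe sets, 198 of 262 values under alternatives kept sign and call, 64 kept sign only, and 0 changed sign. Week 24 between the groups had 4 members past the threshold, 1 without the muscle-bearing arrays (0.282%), 2 with that week's arrays alone and 3 to 4 with a dog left out. The pairs of probe sets went from 2 to 1 without the muscle-bearing arrays, with the actin covariate and with that week alone. The change in ad libitum dogs to week 24 had 1 member, 4 with array weights (13.2% of all probe sets), 0 without a filter, without the muscle-bearing arrays or with the actin covariate, and 0 to 1 with a dog left out. The change in controls had 2, and 0 under the same 3 settings without a filter, without muscle or with actin, and 0 to 2 with a dog left out. The mean of weeks 4 to 24, chosen like the values at weeks 4, 8 and 12 and the changes from week 0 after seeing the data, had 4, and 2 to 5 with a dog left out, the 2 without control dog 3. Week 4 gained 1 member without the batch term, with 1.71% of all probe sets (ELOVL6, 4.96, adjusted p = 0.0317). Array weights gave 3 at week 12 and 3 for the feeding effect at week 24, where they called 24.9% and 6.83% of all probe sets. The cause of these moves was not tested. With the dog as a fixed replicate block the counts were the same, 0 for the feeding effect at week 24 (SCD middle probe set 4.04, adjusted p = 0.0541; ELOVL6 4.02, 0.358), 1 and 2 for the changes to week 24, but the ELOVL6 change to week 8 missed (3.95, adjusted p = 0.0613). Without a replicate block the counts were the same too. ELOVL6 at or below 4, and SCD near the top of the range, limit what signal can show.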
